A study of Mus musculus with 16 samples.

Results

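The genes described here are 10 members of the ATF4 stress pathway and the serine, asparagine and one-carbon synthesis genes it controls: Atf4, Ddit3, Trib3, Chac1, Sesn2, Asns, Psat1, Phgdh, Shmt2 and Mthfd2. They were chosen by symbol from the 24421 symbols of the count table, and all 10 were among the 13649 genes with enough reads to be tested. RNA was sequenced from F4/80-positive cells that the labels call muscle-associated macrophages, with 4 libraries in each of 4 groups. The groups were KO and WT macrophages of CTX-injected muscle and KO and WT macrophages of normal muscle. KO stands for Glud1 deficiency, per the series' design text, and the CTX groups were taken at the peak of muscle damage. The Cre line, the deleted part of Glud1, the age of the mice and the time after injection are not given in the sources used here. Whether the libraries of a group are separate mice is not stated. The p-values therefore describe the spread between libraries only, which may be technical. Each normal group held libraries with and without the female transcript Xist, so its libraries were not all from the same mouse.

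ATF4 is a transcription factor whose protein is made in larger amounts when kinases phosphorylate the initiation factor eIF2, as happens when amino acids are short, unfolded protein fills the endoplasmic reticulum or mitochondria fail. It binds C/EBP-ATF response elements and switches on genes for amino acid synthesis and uptake, tRNA charging and redox control, together with genes such as Ddit3 and Trib3 that accompany prolonged stress. Much of ATF4 control acts on translation, which transcript counts do not show.

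The core letters of such an element occur near the start site of 3 members, and each of those stretches is printed. These members also had the largest changes after injury, but a link between motif and change was not tested. The sequences are from RefSeq on GRCm38.p6, in windows of 300 bases that run from 250 bases before to 50 after each start, and all 10 members had a window. The motif searched was TGATGNAA on either strand, and capitals mark it. Each stretch reads 5′ to 3′ on the strand of its gene.
Chac1, chr2:119351023-119351082 (plus strand): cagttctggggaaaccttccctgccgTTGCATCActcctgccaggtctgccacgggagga
Trib3, chr2:152344028-152344057 (minus strand): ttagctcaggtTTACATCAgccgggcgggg
Asns, chr6:7693214-7693243 (minus strand): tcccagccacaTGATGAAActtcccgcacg
In Chac1 the motif lay on the opposite strand, 193 bases before the start, and in Trib3 it lay on the opposite strand, 14 bases after it. In Asns it lay on the strand of the gene, 23 bases before the RefSeq start. The motif was thus in the windows of 3 of 10 members (30.0%), against 300 of 10383 tested genes with a window (2.89%) and 1304 of all 32851 windows (3.97%). The windows of the other 7 members did not hold these letters. A match describes the sequence and is not a measured binding site. The members were chosen as genes of the ATF4 pathway, so the shares are a description and not a test.

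Library totals ran from 17051892 to 23097420 counts. The targeted gene, Glud1, had 327 to 351 CPM (the read count divided by library size, here with TMM factors) in KO and 348 to 391 CPM in WT macrophages of CTX-injected muscle. It had 210 to 272 CPM in KO and 218 to 292 CPM in WT macrophages of normal muscle. Its read count therefore did not check the genotype labels. All 11 pan-macrophage markers were detected in every group. TMM factors were 0.758 to 0.866 in CTX and 1.13 to 1.34 in normal libraries, so that scaling by library totals alone lowered the median injury log2 fold change of all genes by 0.61 in KO and 0.62 in WT. The 3 normal libraries numbered 5 in KO and 5 and 6 in WT carried Xist and came from females, while the other libraries did not.

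In macrophages of CTX-injected muscle, 7 of the 10 genes were higher than in normal muscle in both genotypes, with no library of 1 group reaching the range of the other. The largest change was that of Chac1, which was 20.6-fold higher in KO and 24.3-fold higher in WT. Asns, Trib3 and Mthfd2 followed, then Atf4, Sesn2 and Psat1, which were about 2.05-fold to 2.63-fold higher. Ddit3 and Phgdh did not pass the test in either genotype, and Shmt2 passed it in WT alone. The test was edgeR's quasi-likelihood test with Benjamini-Hochberg adjustment over all 13649 genes and a threshold of 0.05. It called 7 members higher and 0 lower in KO, where it called 33.3% of all genes higher and 40.2% lower. In WT it called 8 members higher and 0 lower, against 33.3% of all genes higher and 39.4% lower. Groups did not overlap for 7 members in KO, where they did not for 66.8% of all genes, and for 7 members in WT, where they did not for 65.5%. The median log2 fold change of the members was 1.28 in both genotypes, and that of all genes was -0.16 in KO and -0.15 in WT. Both injury comparisons used the TMM scale, and with library totals the same test called 7 members higher and 3 lower in KO and 7 higher and 2 lower in WT. Of all 13649 genes it then called 1920 higher and 8398 lower in KO and 1944 higher and 8349 lower in WT. The median log2 fold change of all genes was then -0.77 in both genotypes. The 7 higher members were the same ones, with log2 fold changes on that scale of 0.51 for Sesn2 to 3.76 for Chac1 in KO and of 0.43 for Psat1 to 3.99 for Chac1 in WT. In these bulk samples, fewer cells of a type and less RNA per cell cannot be told apart.

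**Figure D1:**
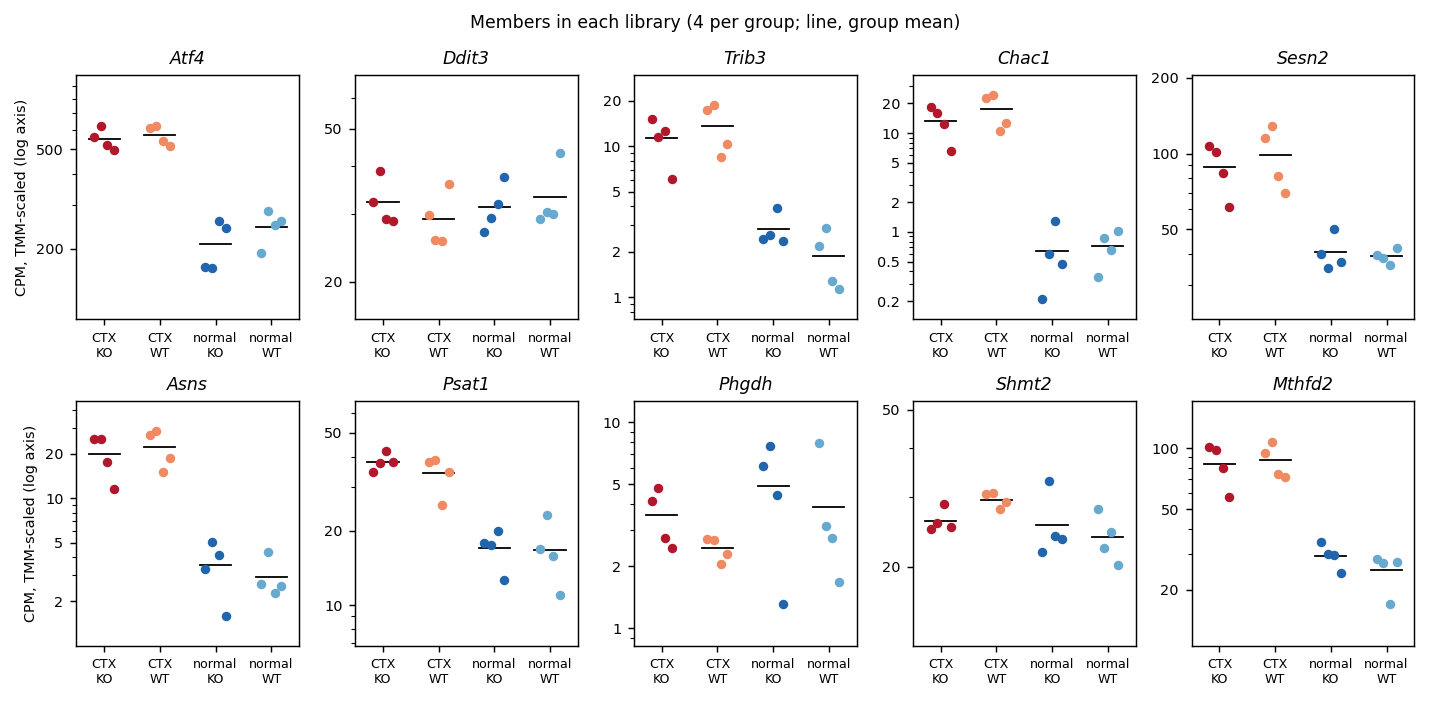
TMM-scaled CPM of each gene in every library on log axes, with groups on the horizontal axis, 1 point per library (4 per group) and a line at the group mean. All CTX points of Atf4, Trib3, Chac1, Sesn2, Asns, Psat1 and Mthfd2 lie above all normal points of the same genotype, while those of Ddit3, Phgdh and Shmt2 overlap them.

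Among the transcription factors, Atf4 itself (chromosome 15, 80255184 to 80257541, plus strand, GRCm38) is the head of the pathway. It had 563, 624, 523 and 496 CPM in KO macrophages of CTX-injected muscle, against 169, 167, 259 and 243 CPM in KO macrophages of normal muscle. WT macrophages had 607, 621, 540 and 518 CPM in CTX-injected muscle, against 193, 283, 248 and 258 CPM in normal muscle. Every CTX library was thus above every normal library, by a wide margin. Atf4 rose by 1.40 ± 0.16 in KO (log2, SE; edgeR adjusted p = 9.81e-07) and by 1.22 ± 0.16 in WT (edgeR adjusted p = 4.12e-06). An exact two-sided permutation test of CPM gave p = 0.0286 in each genotype, the smallest that 4 against 4 libraries allow, and it gave the same for each of the other 6 genes whose groups did not overlap.

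Ddit3 (chromosome 10, 127290829 to 127293753, plus strand) encodes CHOP, the factor that ATF4 induces in prolonged endoplasmic reticulum stress. It had 32.1, 38.9, 29.1 and 28.7 CPM in KO macrophages of CTX-injected muscle, against 26.9, 29.3, 31.8 and 37.4 CPM in those of normal muscle. In WT libraries there were 29.7, 25.7, 25.5 and 35.8 CPM in CTX-injected muscle, against 29.1, 30.3, 30.0 and 43.2 CPM in normal muscle. The groups overlapped almost wholly, with every library between 25.5 and 43.2 CPM. Its log2 fold change was 0.04 in KO (95% interval -0.29 to 0.37, edgeR adjusted p = 0.830) and -0.18 in WT (-0.51 to 0.14, edgeR adjusted p = 0.296). Scaled by library totals, Ddit3 was lower in CTX-injected muscle, with a log2 fold change of -0.57 in KO (edgeR adjusted p = 0.0038) and -0.80 in WT (edgeR adjusted p = 0.000273). The median of all genes on that scale was -0.77 in both genotypes. GENCODE M21, used here for coordinates, holds 2 overlapping records named Ddit3 on the same strand. Their exons were pooled by name to 1713 bases, so the bases that both records share were not measured. The authors' annotation is not given, and the Ddit3 count is uncertain if reads of both records were dropped or split.

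Of the stress effectors, Chac1 (chromosome 2, 119351229 to 119354381, plus strand) encodes a cytosolic enzyme that breaks down glutathione. It had 18.4, 15.96, 12.3 and 6.65 CPM in KO macrophages of CTX-injected muscle, against 0.209, 0.595, 1.28 and 0.471 CPM in those of normal muscle. In WT it had 22.5, 24.4, 10.5 and 12.7 CPM in CTX-injected muscle, against 0.352, 0.860, 0.663 and 1.01 CPM in normal muscle. The normal libraries held only 5 to 30 reads of Chac1 each, so the direction is plain and the size of the fold change is not precise. Chac1 rose by 4.37 ± 0.47 in KO (log2, SE; edgeR adjusted p = 6.03e-07) and by 4.60 ± 0.47 in WT (edgeR adjusted p = 3.30e-07).

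Trib3 (chromosome 2, 152337422 to 152344032, minus strand) encodes a pseudokinase that ATF4 and CHOP induce and that dampens their output. It had 15.3, 11.6, 12.5 and 6.08 CPM in KO macrophages of CTX-injected muscle, against 2.43, 2.58, 3.88 and 2.36 CPM in those of normal muscle. WT macrophages had 17.3, 18.7, 8.44 and 10.4 CPM in CTX-injected muscle, against 2.19, 2.88, 1.29 and 1.14 CPM in normal muscle. Trib3 rose by 2.01 ± 0.34 in KO (edgeR adjusted p = 6.93e-05) and by 2.87 ± 0.36 in WT (edgeR adjusted p = 2.77e-06).

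Sesn2 (chromosome 4, 132492032 to 132510501, minus strand) encodes sestrin 2, a leucine sensor that restrains mTORC1. It had 107, 102, 83.4 and 61.2 CPM in KO macrophages of CTX-injected muscle, against 39.9, 35.1, 50.1 and 37.1 CPM in those of normal muscle. In WT libraries there were 115, 129, 81.8 and 69.9 CPM in CTX-injected muscle, against 39.6, 38.5, 36 and 42.2 CPM in normal muscle. The KO groups came closest to each other, with 61.2 CPM in the lowest CTX library and 50.1 CPM in the highest normal one. Sesn2 rose by 1.12 ± 0.19 in KO (edgeR adjusted p = 7.98e-05) and by 1.34 ± 0.19 in WT (edgeR adjusted p = 1.47e-05).

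The asparagine synthetase gene Asns (chromosome 6, 7675169 to 7693254, minus strand) makes asparagine from aspartate with glutamine as the nitrogen donor. It had 25.5, 25.1, 17.7 and 11.6 CPM in KO macrophages of CTX-injected muscle, against 3.30, 5.09, 4.14 and 1.602 CPM in those of normal muscle. In WT it had 26.7, 28.7, 15.2 and 18.9 CPM in CTX-injected muscle, against 2.62, 4.34, 2.26 and 2.53 CPM in normal muscle. The lowest CTX library of either genotype stood at more than double the highest normal one. Asns rose by 2.48 ± 0.34 in KO (log2, SE; edgeR adjusted p = 6.84e-06) and by 2.93 ± 0.34 in WT (edgeR adjusted p = 1.54e-06).

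The first enzyme of serine synthesis from glycolytic carbon is encoded by Phgdh (chromosome 3, 98313170 to 98339990, minus strand), and the next, which takes its amino group from glutamate, by Psat1 (chromosome 19, 15904678 to 15947337, minus strand). Psat1 had 34.7, 37.6, 42.1 and 37.9 CPM in KO macrophages of CTX-injected muscle, against 17.9, 17.6, 19.96 and 12.7 CPM in those of normal muscle. WT macrophages had 38.2, 38.6, 25.6 and 34.7 CPM in CTX-injected muscle, against 16.9, 23.1, 15.8 and 10.96 CPM in normal muscle. The groups were apart in both genotypes, with the narrowest gap in WT between 25.6 and 23.1 CPM. Psat1 rose by 1.16 ± 0.19 in KO (edgeR adjusted p = 5.54e-05) and by 1.04 ± 0.19 in WT (edgeR adjusted p = 0.000163). With library totals its change was 0.55 in KO (edgeR adjusted p = 0.0153) and 0.43 in WT (edgeR adjusted p = 0.04986), so that the WT call lay at the threshold.

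Phgdh had lower means in CTX-injected muscle and a wide spread among normal libraries. It had 4.15, 4.81, 2.74 and 2.44 CPM in KO macrophages of CTX-injected muscle, against 6.15, 7.67, 4.44 and 1.32 CPM in libraries 1, 2, 3 and 5 of KO normal muscle. In WT libraries there were 2.72, 2.68, 2.06 and 2.31 CPM in CTX-injected muscle, against 7.93, 3.14, 2.73 and 1.69 CPM in libraries 2, 3, 5 and 6 of normal muscle. The normal libraries reached both above and below the CTX ones, and the female libraries included the lowest value of each normal group. Those lowest libraries, KO normal library 5 and WT normal library 6, also had the highest levels of the nuclear RNA Malat1, with 7296 CPM in the KO and 6960 CPM in the WT library. In the other normal libraries Malat1 had 869 to 1974 CPM in KO and 1382 to 2566 CPM in WT, and its part in the Phgdh values was not tested. The log2 fold change of Phgdh was -0.48 in KO (95% interval -1.47 to 0.51, edgeR adjusted p = 0.363) and -0.67 in WT (-1.68 to 0.35, edgeR adjusted p = 0.220). In male libraries alone it was -0.80 in KO (edgeR adjusted p = 0.0378) and -1.19 in WT (edgeR adjusted p = 0.0113), past the threshold in both, as it was with library totals (-1.12 in KO, edgeR adjusted p = 0.0461, and -1.31 in WT, edgeR adjusted p = 0.0253). The male normal libraries were only 1, 2 and 3 in KO and 2 and 3 in WT. They left out the lowest Phgdh value of each group and kept the highest. With the library number as a replicate block over all 16 libraries, the change of Phgdh in WT was -1.24 (edgeR adjusted p = 0.00379), past the threshold. That block also tied CTX libraries to normal ones of the same number, whose deviations had r = 0.0138 and 0.0682 in WT. Without WT normal library 2, the highest, the value in WT was -0.05 (edgeR adjusted p = 0.921), and without KO normal library 2 the value in KO was -0.18 (edgeR adjusted p = 0.749).

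Among the normal libraries of each genotype, Phgdh stood in the same order as the sum of markers of neutrophils and their precursors. This was 1 of 17 lists whose orders were available, and the match over 4 libraries was not tested. The summed CPM of the 8 neutrophil markers was 6417 in KO normal library 2, 1908 in library 1, 1533 in library 3 and 201 in library 5, the same order as Phgdh. In WT normal muscle it was 4330 in library 2, 1350 in library 3, 819 in library 5 and 244 in library 6, again the order of Phgdh. The 16 proliferation genes reached their highest sums in library 2 of each normal group, where KO had 720 CPM and WT 667 CPM. In WT their sum also stood in the order of Phgdh. KO normal library 5, the lowest for Phgdh, had the lowest sum for 8 of the 17 lists. Beside the neutrophil list these were the proliferation, T and NK cell, dendritic cell, endothelial, fibroblast, pan-macrophage and aminoacyl-tRNA synthetase lists. WT normal library 6, the lowest for Phgdh, had the lowest sum for 4 of the 17, the neutrophil, proliferation, fibroblast and aminoacyl-tRNA synthetase lists. There the T and NK cell, dendritic cell and endothelial sums were lowest in library 3, and the pan-macrophage sum in library 2. In CTX-injected muscle the neutrophil sum was 146 to 1018 CPM in KO and 86.8 to 309 CPM in WT, and its order was not that of Phgdh. None of the 8 neutrophil markers was at 0 throughout a group. The part of these cells in the Phgdh values was not tested.

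**Figure D2:**
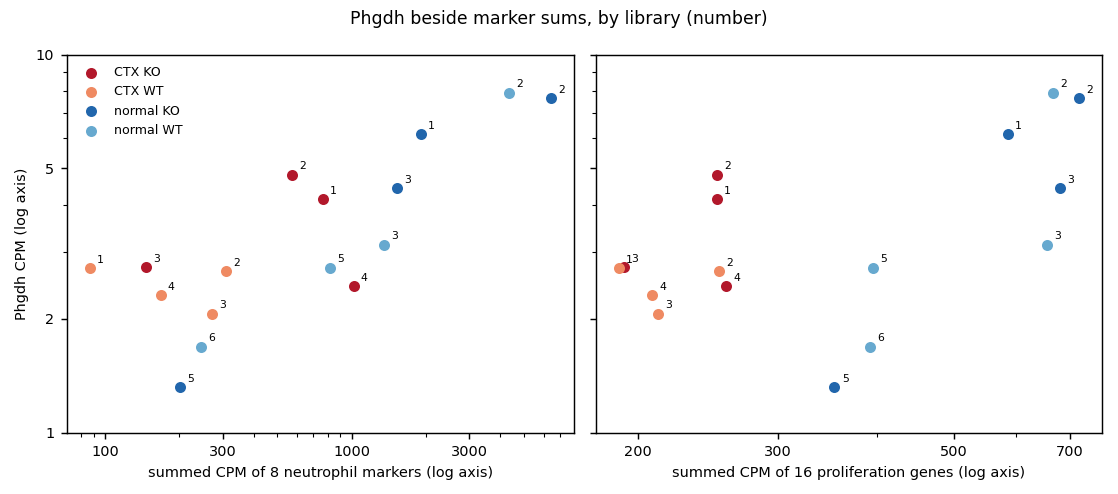
TMM-scaled CPM of Phgdh (vertical, log axis) beside the summed CPM of 8 neutrophil markers (left) and of 16 proliferation genes (right, log axes) in each library, with the library number at each point. The 4 KO and the 4 WT normal libraries each stand in the same order on the neutrophil axis as on the Phgdh axis, from library 2 down to library 5 in KO and library 6 in WT.

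The mitochondrial one-carbon enzymes pass on the carbon that serine gives up. Shmt2 (chromosome 10, 127517123 to 127522444, minus strand) splits serine into glycine and a folate-bound carbon, and Mthfd2 (chromosome 6, 83305691 to 83325908, minus strand) oxidises that carbon. Mthfd2 had 101, 97.5, 79.7 and 57.1 CPM in KO macrophages of CTX-injected muscle, against 34.4, 29.9, 29.6 and 24.1 CPM in those of normal muscle. In WT it had 94.9, 107, 74.1 and 72.2 CPM in CTX-injected muscle, against 28.5, 27.2, 16.96 and 27.4 CPM in normal muscle. Mthfd2 was well apart between the groups in both genotypes. It rose by 1.504 ± 0.20 in KO (log2, SE; edgeR adjusted p = 5.02e-06) and by 1.80 ± 0.20 in WT (edgeR adjusted p = 8.46e-07).

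Shmt2 had 24.9, 25.8, 28.9 and 25.2 CPM in KO macrophages of CTX-injected muscle, against 21.8, 32.9, 23.8 and 23.6 CPM in those of normal muscle. WT macrophages had 30.5, 30.8, 27.97 and 29.1 CPM in CTX-injected muscle, against 28.04, 22.3, 24.5 and 20.2 CPM in normal muscle. The KO groups overlapped widely, and the WT groups met between the lowest CTX library, at 27.97 CPM, and the highest normal one, at 28.04 CPM. The log2 fold change of Shmt2 was 0.03 in KO (95% interval -0.24 to 0.30, edgeR adjusted p = 0.818) and 0.32 in WT (0.05 to 0.59, edgeR adjusted p = 0.0342). The exact permutation test of the WT groups gave p = 0.0571. With library totals the sign turned, to -0.58 in KO (edgeR adjusted p = 0.0022) and -0.30 in WT (edgeR adjusted p = 0.0751). The median of all genes on that scale was -0.77 in both genotypes. DESeq2 gave an adjusted p of 0.0524 for Shmt2 in WT. The call in WT was also lost without any 1 of 7 libraries, namely WT CTX libraries 1, 2 and 4, KO normal library 3 and WT normal libraries 3, 5 and 6, with edgeR adjusted p-values of 0.0501 to 0.138. Shmt2 shares 32 exon bases with Ndufa4l2 on the opposite strand, which averaged 15.6 reads a library, and it lies 223 kb from Ddit3.

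**Figure D3:**
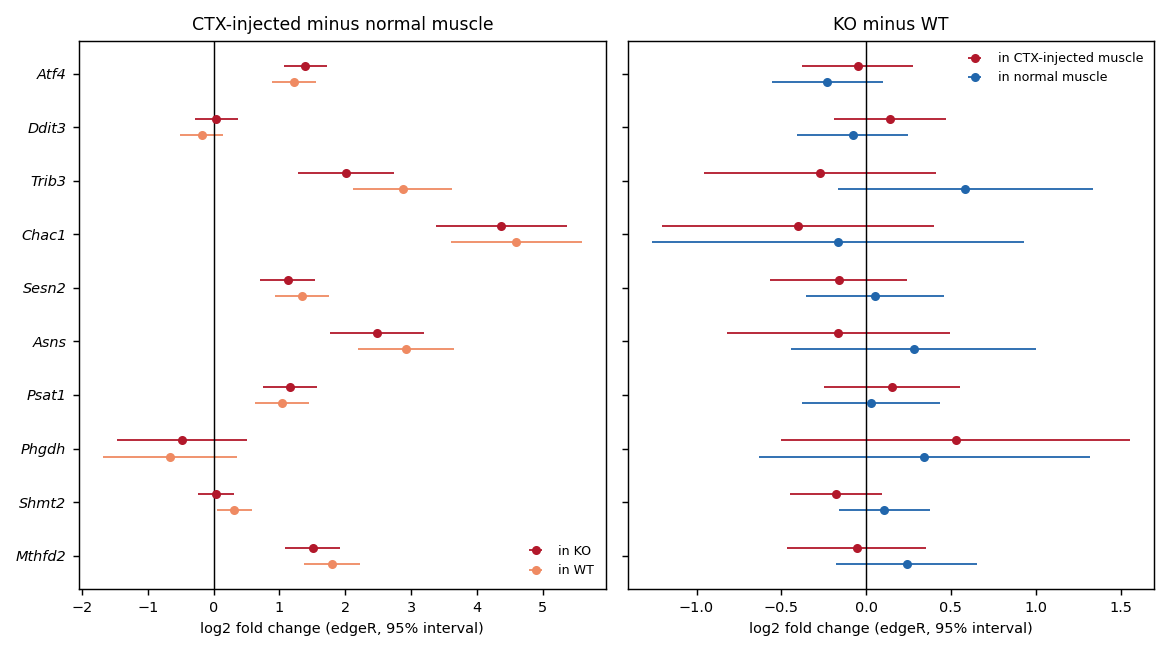
Log2 fold change of each gene with its 95% interval from edgeR, on the TMM scale, for CTX-injected minus normal muscle in KO and WT (left) and for KO minus WT in CTX-injected and normal muscle (right). The intervals of 7 genes lie above 0 in both injury comparisons, and all 20 genotype intervals include 0.

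KO and WT macrophages were compared to ask whether deficiency of Glud1, the mitochondrial enzyme that turns glutamate into 2-oxoglutarate, went with another level of these genes. No member passed the test in either muscle state. In CTX-injected muscle edgeR called 0 of 10 members, where it called 0.00733% of all genes, which is 1 gene, Lyz1, a lysozyme gene named after its values were seen. In normal muscle it called 0 of 10 members and 0% of all genes. The fit held no block, so a possible pairing of normal libraries by number was not used. At an unadjusted p under 0.05 there were 910 genes in CTX-injected and 390 in normal muscle, with none of the 10 members among them. DESeq2 called 18 genes higher and 26 lower in CTX-injected muscle, and limma voom 66 higher and 46 lower.

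The KO and WT groups overlapped for all 10 members in both muscle states. In CTX-injected muscle the lowest log2 difference of KO minus WT was that of Chac1, at -0.40 (95% interval -1.20 to 0.40), with means of 13.3 ± 5.10 CPM in KO and 17.5 ± 6.95 CPM in WT (SD, n = 4 each). The highest was that of Phgdh, at 0.53 (-0.50 to 1.56), with means of 3.54 ± 1.13 CPM in KO and 2.44 ± 0.314 CPM in WT. For Atf4 it was -0.05 (-0.38 to 0.28) and for Asns -0.16 (-0.82 to 0.49). In normal muscle the differences ran from -0.23 for Atf4 (-0.56 to 0.10) to 0.59 for Trib3 (-0.16 to 1.34). Intervals this wide do not show that the groups are alike.

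The injury responses of KO and WT were compared by the interaction term, which edgeR called for 0 of 10 members and for 0% of all genes. At an unadjusted p under 0.05 there were 646 genes, and the smallest adjusted p over all genes was 0.0818. DESeq2 called 9 genes higher and 39 lower for this term and limma voom 2 higher and 9 lower. The term farthest from 0 among the members was that of Trib3, at -0.86 (95% interval -1.87 to 0.15, edgeR unadjusted p = 0.0915, adjusted p = 1). The call of Shmt2 in WT and its absence in KO likewise did not amount to a difference past the threshold (-0.28, -0.66 to 0.10, edgeR unadjusted p = 0.135).

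Within the CTX groups Chac1, Trib3, Asns, Sesn2 and Mthfd2 stood in similar orders from library to library. In KO the lowest of the 4 libraries was library 4 for 8 of the 10 members, with Psat1 and Shmt2 as the exceptions. Chac1, Asns, Sesn2 and Mthfd2 all stood in the order of libraries 1, 2, 3 and 4, from high to low. In WT, library 2 was the highest for 8 members and library 3 the lowest for 7. Atf4, Sesn2 and Mthfd2 shared the order 2, 1, 3 and 4 there, and Chac1, Trib3, Asns, Psat1 and Shmt2 the order 2, 1, 4 and 3.

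The genes differed in how far they spread. The highest library was 2.76 times the lowest for Chac1 in KO and 2.33 times in WT, and for Trib3 it was 2.51 times in KO and 2.21 times in WT. For Asns the ratio was 2.19 in KO and 1.89 in WT, but for Atf4 only 1.26 in KO and 1.20 in WT and for Shmt2 1.16 in KO and 1.10 in WT. The summed CPM of 27 other ATF4 targets and partners was highest in KO library 2 (14810) and lowest in KO library 4 (11940). In WT it was highest in library 2 (16300) and lowest in library 4 (14070). This was the order of Atf4 in both genotypes. Chac1, Trib3, Asns, Sesn2 and Mthfd2 were instead highest in KO library 1, and Chac1, Trib3 and Asns lowest in WT library 3. The endoplasmic reticulum chaperone list stood in the order of that sum in KO, with 11210, 11790, 10050 and 9882 CPM in libraries 1 to 4. In WT it did not, with 11140, 11410, 12090 and 12550 CPM. Beyond these genes, KO library 4 had the lowest sum of its group for 10 of the 17 other gene and marker lists. Among them were the pan-macrophage list (24630 against 25850 CPM in library 3) and the aminoacyl-tRNA synthetase list (1920 against 1971 CPM in library 2). Library 4 had the highest sum for 3 lists, those of neutrophils, dendritic cells and proliferation. The share of all genes that were lowest in library 4 was not counted. Its TMM factor was the highest of its group, at 0.866. The part of this library in the shared order was not tested. Libraries 1 and 2 of WT were the most alike pair of any group, with a chi-square per degree of freedom of 6.33, and libraries 3 and 4 of KO were next with 7.65, against 13.9 to 104 elsewhere. All pairs differed by more than sampling noise, and none was counted as a duplicate.

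**Figure D4:**
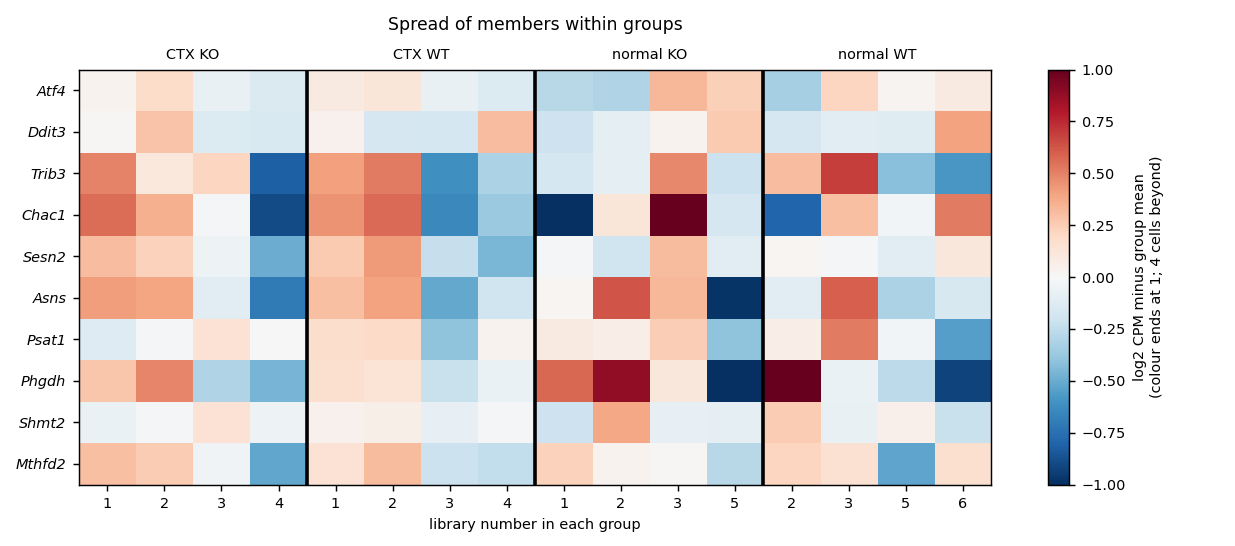
Log2 CPM minus the group mean for each gene and library, in colour, with the 16 libraries on the horizontal axis by group. KO CTX library 4 and WT CTX libraries 3 and 4 are low for Trib3, Chac1, Sesn2, Asns and Mthfd2, and Phgdh and Chac1 span wide colour ranges among normal libraries.

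Set per length, as TMM-scaled CPM per kilobase of merged exons, Atf4 was the highest of the 10 in every group. It stood at 234 ± 23.5 in KO and 242 ± 21.3 in WT macrophages of CTX-injected muscle, and at 88.8 ± 20.4 in KO and 104 ± 16.1 in WT macrophages of normal muscle (SD, n = 4 each). The next were Sesn2, at 25.4 ± 5.98 in KO and 28.4 ± 7.94 in WT of CTX-injected muscle, and Mthfd2, at 24.0 ± 5.74 in KO and 25.0 ± 4.80 in WT, neighbours that lay within each other's spread. Ddit3 followed there, at 18.8 ± 2.75 in KO and 17.04 ± 2.81 in WT, and was next to Atf4 in normal muscle, at 18.3 ± 2.64 in KO and 19.3 ± 3.93 in WT.

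The lower places changed most between muscle states. Chac1 was the lowest of the 10 in normal muscle, at 0.390 ± 0.279 per kilobase in KO and 0.441 ± 0.174 in WT, but took place 7 in KO, at 8.13 ± 3.12, and place 5 in WT, at 10.7 ± 4.24, of CTX-injected muscle. Phgdh was the lowest in CTX-injected muscle, at 1.42 ± 0.454 in KO and 0.982 ± 0.126 in WT, and had place 7 in normal muscle, at 1.97 ± 1.10 in KO and 1.56 ± 1.12 in WT. Psat1, the next enzyme of the same pathway, stood above Phgdh in every group, at 8.95 ± 0.715 in KO and 8.06 ± 1.43 in WT of CTX-injected muscle. Psat1, Shmt2, Chac1 and Asns lay within each other's spread in both CTX groups, though such spreads do not pair the genes within a library. Their order also depended on the length used. In WT of CTX-injected muscle Chac1 had place 5 with merged exons and place 8 with the longest transcript, and Psat1 had place 8 and then place 5. The order of these genes is therefore not resolved. In normal muscle Sesn2 stood at 11.7 ± 1.92 in KO and 11.2 ± 0.736 in WT, and Mthfd2 at 8.46 ± 1.21 in KO and 7.17 ± 1.55 in WT, a range it shared with Shmt2, at 8.21 ± 1.61 in KO and 7.64 ± 1.08 in WT. Psat1 followed there at 3.999 ± 0.724 in KO and 3.93 ± 1.177 in WT, and Trib3 and Asns were between 0.882 and 1.32 in mean, within each other's spread. Use of the longest transcript in place of merged exons shifted several places but left Atf4 highest.

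The genes nearest to each responsive member were found by the root mean square difference of log2 CPM, centred on each gene's mean, over the 16 libraries. The pattern of Trib3 was nearest to that of Asns among 13648 genes, at 0.403, and Trib3 had rank 8 for Asns, whose nearest gene was Apcdd1 at 0.325. Nearest to Atf4 was Arfgap3 (0.0619), to Chac1 Trim13 (0.452), to Sesn2 the asparaginyl-tRNA synthetase gene Nars (0.205) and to Mthfd2 Abr (0.203). For Psat1 it was Msmo1 (0.177) and for Shmt2 Ncaph2 (0.118). Apart from Trib3 and Asns, these members were nearer to many other genes than to each other. Their nearest fellow member had rank 78 for Mthfd2, 105 for Sesn2, 135 for Chac1, 590 for Atf4, 1675 for Psat1 and 3488 for Shmt2. For comparison, the median distance of all tested genes was 0.844 from Atf4 and 2.36 from Chac1. The distance was not scaled to the size of each gene's change. Genes with changes of unlike size therefore stand apart even if they vary in step.

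The genes around the pathway were described by lists, with edgeR calls and TMM scaling. The list of the input arm held 9 genes, those of the eIF2 kinases, eIF2 alpha and its phosphatase subunits, with Gcn1 and Impact. Of these, 3 rose and 3 fell in KO and 2 rose and 2 fell in WT, with medians of 0.07 in KO and -0.04 in WT. With library totals 2 were higher and 5 lower in KO and 2 higher and 7 lower in WT, with medians of -0.54 in KO and -0.66 in WT. On the TMM scale Eif2s1, which encodes eIF2 alpha, rose by 1.52 in KO and 1.53 in WT, and Ppp1r15b, a subunit of its phosphatase, by 1.03 in KO and 1.01 in WT. The kinase gene Eif2ak4 (GCN2, which senses uncharged tRNA) had a log2 fold change of -0.56 in KO and -0.55 in WT, and Eif2ak3 (PERK, which senses unfolded protein) of -0.42 in KO and -0.36 in WT, and all 4 of these changes passed the test.

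Of 25 tested genes among 27 other ATF4 targets and partners, 15 rose and 6 fell in KO (median 0.71) and 13 rose and 7 fell in WT (median 0.77). Slc7a5 encodes the small subunit of a leucine transporter. It had 98.4 to 143 CPM in KO macrophages of CTX-injected muscle, against 33.7 to 46.1 CPM in those of normal muscle. In WT libraries there were 126 to 159 CPM, against 36.2 to 51.8 CPM. It rose by 1.64 in KO and 1.74 in WT, and Eif4ebp1, a brake on cap-dependent translation, by 1.72 in KO and 1.81 in WT. Atf3, another stress factor and a partner of ATF4, moved the other way, with 338 to 448 CPM in KO macrophages of CTX-injected muscle, against 1228 to 1483 CPM in those of normal muscle, and with 327 to 425 CPM in WT, against 1334 to 1686 CPM. Vldlr, a lipoprotein receptor gene, had at most 0.0559 CPM in KO and 0.332 CPM in WT of CTX-injected muscle, against 1.27 to 4.31 CPM in KO and 0.885 to 3.24 CPM in WT of normal muscle. With library totals the counts of this list became 8 higher and 10 lower in KO and 10 higher and 10 lower in WT.

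The aminoacyl-tRNA synthetase genes, whose products charge tRNAs with amino acids, moved nearly all in 1 direction. In both genotypes 19 of 20 rose and 1, Vars, fell, with medians of 0.73 in KO and 0.79 in WT. Aars, for alanine, rose by 1.73 in KO and 1.604 in WT, and Tars, for threonine, by 0.86 in KO and 0.97 in WT, while the log2 fold change of Vars, for valine, was -0.57 in KO and -0.36 in WT. With library totals 7 were higher in KO and 8 in WT, and 1 was lower in each.

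The endoplasmic reticulum chaperone and unfolded protein response genes had 16 of 18 higher and 1 lower in both genotypes, with medians of 1.136 in KO and 1.178 in WT. Creld2, a secreted stress-induced chaperone, rose by 2.18 in KO and 2.39 in WT, and Pdia6, a disulfide isomerase, by 2.05 in KO and 2.12 in WT. The 1 gene that fell was Herpud1, a factor of protein degradation at the endoplasmic reticulum, with a log2 fold change of -0.54 in KO and -0.42 in WT. With library totals 12 were higher and 2 lower in each genotype.

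The other genes of serine, glycine and folate metabolism were mixed. Of 14 tested, 7 rose and 4 fell in KO (median 0.33) and 5 rose and 4 fell in WT (median 0.04). With library totals 4 were higher and 7 lower in KO (median -0.28) and 5 higher and 9 lower in WT (median -0.57). Gcsh and Dld, 2 proteins of the glycine cleavage system, rose by 2.57 and 1.04 in KO and by 2.48 and 1.02 in WT. The folate dehydrogenase gene Aldh1l1 had 0.168 to 1.32 CPM in KO macrophages of CTX-injected muscle, against 8.39 to 11.7 CPM in those of normal muscle, and 0.199 to 0.605 CPM in WT, against 4.04 to 10.7 CPM. Tyms, the thymidylate synthase gene that is also on the proliferation list, had a log2 fold change of -1.57 in KO and -1.53 in WT, both past the threshold.

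Of 9 mitochondrial chaperones and proteases, 4 rose and 3 fell in each genotype, with medians of 0.22 in KO and 0.27 in WT. With library totals 1 was higher and 6 were lower in each, with medians of -0.39 in KO and -0.35 in WT. Hspa9, the mitochondrial HSP70, rose by 1.28 in KO and 1.10 in WT, and the protease gene Clpp by 0.54 in KO and 0.94 in WT, though with library totals Clpp was at -0.07 in KO. Hspe1, a chaperonin subunit, had a log2 fold change of -1.01 in KO and -1.40 in WT, and the protease gene Htra2 of -0.92 in KO and -0.82 in WT. The 6 relatives of the members did not share their direction, with 2 higher and 3 lower in KO and 1 higher and 4 lower in WT. With library totals 0 were higher and 4 lower in each. Sesn1 had a log2 fold change of -2.20 in KO and -2.27 in WT, opposite to Sesn2, and Trib2 of -3.55 in KO and -2.42 in WT, opposite to Trib3. Chac2, the relative of Chac1, rose by 0.48 in KO and 0.54 in WT with TMM and stood at -0.13 in KO and -0.08 in WT with library totals. In the genotype comparisons and the interaction, edgeR called none of the genes of these lists.

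**Figure D5:**
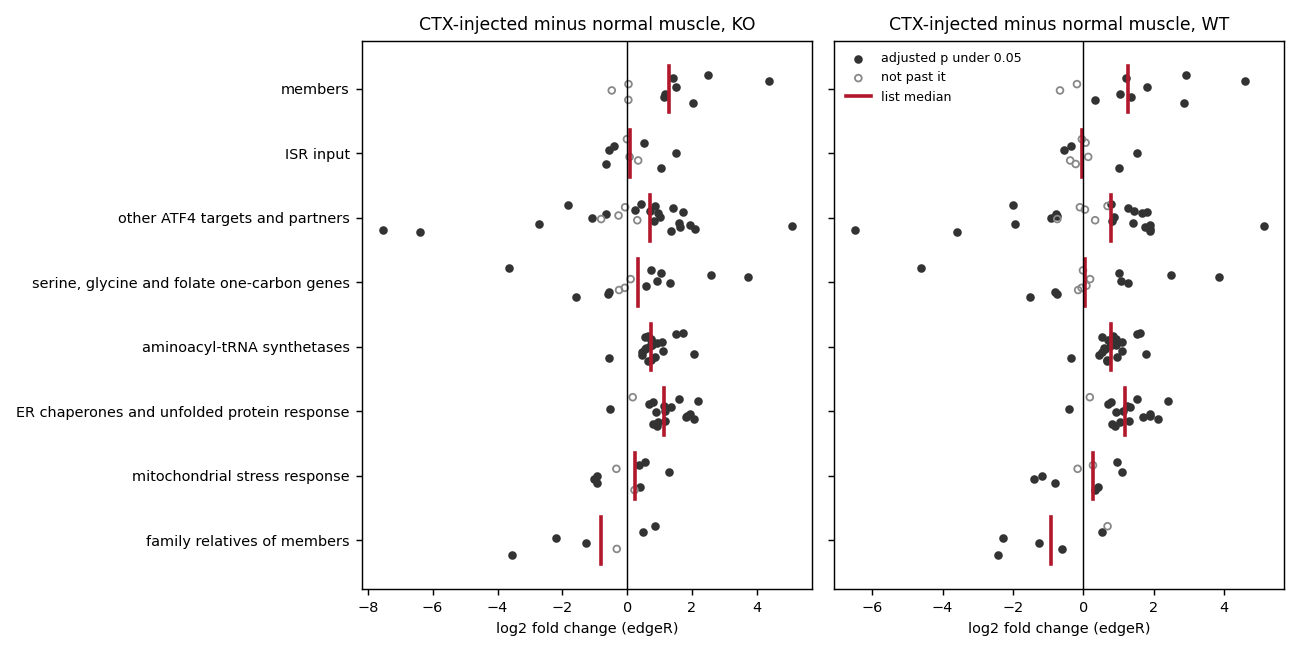
Log2 fold change of CTX-injected minus normal muscle in KO (left) and WT (right) for each tested gene of 8 lists, on the TMM scale, with filled points past the edgeR threshold, open points not past it and a red line at the list median. ISR input stands for the eIF2 kinases, eIF2 alpha, its phosphatase subunits, Gcn1 and Impact (integrated stress response). The aminoacyl-tRNA synthetase and chaperone lists lie almost wholly above 0, and the relatives of the members mostly below it.

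Markers of other cells and states moved with injury beside these genes. The 11 T and NK cell markers found in the table, of 12 listed, all fell in both genotypes, with sums of 4.31 to 13.0 CPM in KO macrophages of CTX-injected muscle, against 141 to 333 CPM in normal muscle, and 1.40 to 9.01 CPM in WT, against 86.8 to 210 CPM, with Ncr1 at 0 in every WT library of CTX-injected muscle. Of 7 dendritic cell markers 6 fell and 1 rose in each genotype, with sums of 54.6 to 88.5 CPM in KO, against 515 to 803 CPM, and 76.8 to 98.9 CPM in WT, against 423 to 603 CPM. Fibroblast markers fell in 7 of 7 in KO and 6 of 7 in WT, with sums of 54.3 to 68.9 CPM in KO, against 187 to 890 CPM, and 76.1 to 100 CPM in WT, against 226 to 549 CPM.

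Endothelial markers fell in 7 of 8 in KO and 6 of 8 in WT, with sums of 65.0 to 86.4 CPM in KO, against 175 to 240 CPM, and 65.2 to 82.4 CPM in WT, against 140 to 190 CPM. Neutrophil markers fell in 1 of 8 in KO and 7 of 8 in WT. With library totals 6 of 8 were lower in KO and 7 of 8 in WT, and edgeR called the interaction for 0 of 8, so a difference between the genotypes is not shown. Muscle fibre markers fell in all 6 tested of 8 in KO and 5 in WT, and their sums were at most 5.10 CPM in CTX and 39.4 CPM in normal libraries. Satellite cell markers summed to at most 7.54 CPM in any library, with Pax7 and Myog at 0 in every CTX library and Myf5 also at 0 in those of KO.

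The 16 proliferation genes had 15 lower and 1 higher in each genotype, and all 15 immediate early and heat shock genes, which rise in cells stressed during dissociation, were lower. The sums of the immediate early list were 5181 to 6295 CPM in KO macrophages of CTX-injected muscle, against 23780 to 29440 CPM in normal muscle, and 5192 to 7052 CPM in WT, against 23940 to 28950 CPM. The pan-macrophage markers rose in 8 and fell in 2 of 11 in KO and rose in 9 and fell in 2 in WT, and with library totals 6 were higher and 2 lower in each. Their sums were 24630 to 29310 CPM in KO, against 11480 to 17730 CPM, and 31920 to 39120 CPM in WT, against 13430 to 20720 CPM. The part of any of these lists in the changes of the 10 genes was not tested.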

How the data were processed

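RNA of F4/80-positive macrophages sorted from muscle was amplified with SMART-Seq V4, per the labels' protocols. The authors deposited raw counts, whole numbers of reads for each gene symbol in 16 libraries. Per the submitters' processing notes, mm10 was the build, and the tools were HISAT2 2.1.0, featureCounts of Subread 1.6.2, cutadapt 1.18 and FastQC 0.11.7. The annotation, strand setting and treatment of multiply mapped reads are not given in the sources used here. The kit keeps no strand, so reads of a gene and its opposite-strand partner cannot be told apart.

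From these counts, genes were kept with filterByExpr, scaled by TMM and tested with edgeR 4.0.16 (quasi-likelihood, 1 coefficient per group over all 16 libraries, Benjamini-Hochberg over 13649 genes, threshold 0.05) in R 4.3.3. The 5 comparisons were KO against WT in each muscle state, CTX-injected against normal muscle in each genotype, and the interaction. Log2 CPM used a prior count of 2. Single genes were also compared by exact two-sided permutation tests. The fit was tested on simulated data. Depth was 17051892 to 23097420 counts per library, and reads carry no molecular identifiers.

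Coordinates and exon lengths came from GENCODE M21 on GRCm38 and promoters from RefSeq GRCm38.p6. The members, lists and naming rule were chosen with earlier results of these data known. From each other list, the text names the 2 genes of smallest p that rose and the 2 that fell in WT after injury, except that cell type and state lists are given by counts and sums. The study of pairing by library number used correlations of deviations from group means. Same-numbered KO and WT libraries had r = 0.644, 0.567 and 0.244 in normal muscle and r = -0.124 to 0.0046 in CTX-injected muscle. The normal libraries may thus be paired by number, but the main fit held no block and did not use this. Blocks by number were run only as alternatives.

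Alternatives were DESeq2 size factors, library totals, a minimum of 5 CPM in 4 libraries, no filter on low counts, the compared groups alone, a replicate block, male libraries only, DESeq2 1.42.0, limma 3.58.1 voom with quality weights, the longest transcript and leaving out each library. A block in normal muscle alone was added after seeing the data.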

Additional observations from a re-analysis of the deposited data

Results flagged for a closer look

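For 4 genes, 1 library of a normal group (3 times WT, 1 time KO) stood apart from the other 3 by a gap above Dixon's 95% critical value for the gap as a share of the group's range. Chance flags about 1 in 20 groups, or 2.0 of the 40 sets of 1 gene in 1 group checked here. Ddit3 was at 43.2 CPM in WT normal library 6, against 29.1 to 30.3 CPM in the other WT normal libraries. Trib3 was at 3.88 CPM in KO normal library 3, against 2.36 to 2.58 CPM in the others. Asns was at 4.34 CPM in WT normal library 3, against 2.26 to 2.62 CPM in the others. Mthfd2 was at 16.96 CPM in WT normal library 5, the only low value of the 4, against 27.2 to 28.5 CPM in the others.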

How the results depend on the processing

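The calls of Atf4, Trib3, Chac1, Sesn2, Asns, Psat1 and Mthfd2 after injury held in both genotypes under every alternative, leaving out each library included, though library totals lowered each of these changes and left Psat1 in WT at an edgeR adjusted p of 0.04986. Library totals gave 1944 genes higher and 8349 lower in WT and 1920 and 8398 in KO, with 2 members lower in WT and 3 in KO, and turned Shmt2 (-0.30 in WT, -0.58 in KO) and Ddit3 in KO (-0.57). They also turned the KO minus WT difference in CTX-injected muscle of Atf4 (0.0362) and Mthfd2 (0.0274). The 5 CPM filter, which leaves fewer genes for scaling, turned Ddit3 (-0.14) and Shmt2 (-0.14) in KO. Male libraries alone gave 1 member lower in each genotype, Phgdh, and Shmt2 at -0.0166 in KO. The replicate block gave Phgdh in WT at -1.24 (edgeR adjusted p = 0.00379), 1 member lower there, and Ddit3 at 0.0128 in WT. Shmt2 in WT lost its call under the 5 CPM filter, the replicate block, male libraries and DESeq2, and without any 1 of 7 libraries, WT normal library 6 among them. For KO minus WT in normal muscle the block gave Ddit3 0.0907, Chac1 0.00285, Psat1 -0.17 and Phgdh -0.15, the block in normal muscle alone gave 0.13, 0.30, -0.16 and -0.14 for the same genes, and male libraries gave Ddit3 0.0136, Chac1 0.23 and Psat1 -0.0865. None of these genotype values was a call, and the block changed no other call of a member. Genes lower in KO in CTX-injected muscle numbered 2 with the compared groups alone, 1 with the block, 1 in male libraries, 26 by DESeq2 and 46 by voom, and genes higher 18 by DESeq2 and 66 by voom. The interaction had 9 genes higher and 39 lower by DESeq2, 2 and 9 by voom and 1 lower in male libraries, and voom gave Psat1 -0.0526 and Phgdh -0.50. Leaving out 1 library gave 0 to 1 genes lower in KO in CTX-injected muscle and 0 to 1 higher and 0 to 2 lower for the interaction, the counts above 0 coming without KO CTX library 2 or KO normal library 5. It moved the KO minus WT difference to -0.31 to 0.0234 for Asns and -0.16 to 0.0891 for Mthfd2 in CTX-injected muscle, and in normal muscle to -0.14 to 0.0772 for Ddit3, -0.71 to 0.13 for Chac1, -0.0567 to 0.13 for Sesn2, -0.12 to 0.24 for Psat1 and -0.0348 to 0.21 for Shmt2. The injury change in KO ran from -0.0618 to 0.12 for Ddit3 and -0.0296 to 0.19 for Shmt2, and the interaction from -0.51 to 0.34 for Chac1, -0.0626 to 0.29 for Psat1 and -0.44 to 0.49 for Phgdh. The cause of the other changes was not tested. Depth limits Chac1 in normal muscle, at 5 to 30 reads a library.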
